A study of Homo sapiens and Mus musculus with 92 samples.

Results

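Glutamine synthesis, use and transport were followed through 9 genes in HEL cells in which MLL1 or AF9 had been knocked down (KD). The genes were taken from the 28103 gene symbols listed in both RNA-seq count tables by exact match of the symbol, and all 9 were found. They comprise 5 enzymes (GLUL, GLS2, GLUD1, GOT1 and GOT2) and 4 transporters of the plasma membrane (SLC1A5, SLC38A1, SLC38A2 and SLC7A5). HEL is an established line of human erythroleukemic cells without a rearranged MLL gene. In the MLL1 experiment 3 control libraries stand against 3 libraries from MLL1 KD cells, and in the AF9 experiment 2 separate control libraries stand against 2 from AF9 KD cells. Control cells are WT by genotype in the labels, and per the methods they carried a control shRNA. Each knockdown was made with 1 lentiviral shRNA in a puromycin-selected pool of cells, since clones of HEL cells could not be grown, and all cells grew in medium that contained L-glutamine. The 10 RNA-seq libraries are part of 92 samples, and the remaining samples were not used here.

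Glutamine is the most abundant free amino acid of blood plasma and a donor of nitrogen for nucleotides, amino sugars and asparagine. Glutamine synthetase makes it from glutamate and ammonia, glutaminases return it to glutamate, and glutamate dehydrogenase or the aminotransferases pass its carbon on to the citric acid cycle as 2-oxoglutarate. Fast-growing leukemic cells take up much of their glutamine from the medium through sodium-coupled carriers. MLL1 is a histone methyltransferase that binds DNA with unmethylated CpG dinucleotides through its CXXC domain. AF9 is a reader of acylated histones and a subunit of the super elongation complex. For AF9 in HEL cells the study proposes a possible major role in transcriptional initiation and an accessory one in recruiting the elongation kinase CDK9.

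GLUL and GLUD1 are the members whose MLL1 KD libraries all lay below the controls, though neither was called in the fit as designed. The 250 bases upstream of their outermost annotated starts follow with every CG dinucleotide in capitals, 5′ to 3′ on the minus strand, on which both genes lie. The letters were read from hg38 at chr1:182392207-182392456 for GLUL and chr10:87094844-87095093 for GLUD1, and neither window overlaps an annotated exon.
GLUL: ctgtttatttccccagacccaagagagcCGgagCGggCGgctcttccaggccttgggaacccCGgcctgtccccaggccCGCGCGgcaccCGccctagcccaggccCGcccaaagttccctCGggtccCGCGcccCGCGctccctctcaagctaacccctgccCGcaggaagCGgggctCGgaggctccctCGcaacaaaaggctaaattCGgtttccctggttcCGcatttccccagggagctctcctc
GLUD1: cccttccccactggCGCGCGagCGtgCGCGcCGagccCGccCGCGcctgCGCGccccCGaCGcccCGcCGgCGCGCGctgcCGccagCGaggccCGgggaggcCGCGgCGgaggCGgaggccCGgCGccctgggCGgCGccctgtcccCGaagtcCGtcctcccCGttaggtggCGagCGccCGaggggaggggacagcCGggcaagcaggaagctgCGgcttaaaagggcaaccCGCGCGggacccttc
The GLUL window holds 20 CG dinucleotides and the GLUD1 window 41. Among 35116 promoter windows of 250 bases from RefSeq (GRCh38.p14) the median was 11, and 32.4% held at least as many as GLUL and 1.73% at least as many as GLUD1. The GLUD1 window is itself a RefSeq promoter window, but the GLUL window is not. RefSeq starts GLUL 416 and 865 bases further downstream, and the 250 bases before these starts hold 25 and 22 CG dinucleotides. Because CG reads the same on both strands, each was counted once. CG counts of the other members are not given here, and whether CG content goes with the effect of MLL1 KD was not tested. Binding of MLL1 or AF9 at these windows was not analysed here, though the study shows MLL1 and Pol II reads over the GLUL locus in HEL cells.

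Total counts per library were 6966345 to 10380241 in the MLL1 experiment and 12278989 to 14232408 in the AF9 experiment, and the 9 genes took 0.185% to 0.301% and 0.221% to 0.296% of them. Levels within a gene are given as CPM (counts divided by the library's size after TMM scaling in edgeR), and levels between genes as TPM, which also divides by gene length. SE is the standard error of a fitted log2 fold change. A call required a change of at least 1.5-fold together with an adjusted p value under 0.05 in the two-sided quasi-likelihood test of edgeR. Replicate 1 of the MLL1 experiment stood apart, with chi-square values (per degree of freedom) against replicates 2 and 3 of 31.6 and 34.7 in control cells and 54.3 and 60.2 in MLL1 KD cells, where replicates 2 and 3 differed by 2.40 and 2.69. KMT2A, the gene of MLL1, was at 1318, 1302 and 1254 CPM in the controls and at 815, 812 and 832 CPM after MLL1 KD, with an adjusted p value of 0.0722 (2.5e-07 with the replicate number as a block, edgeR). MLLT3, the gene of AF9, was at 547 and 527 CPM in the controls and at 107 and 92.5 CPM after AF9 KD (log2 fold change -2.43, SE 0.11, adjusted p = 3.0e-08, edgeR). Mean KMT2A was at 80.2% of control in AF9 KD cells. Mean MLLT3 was at 82.2% of control in MLL1 KD cells, with overlapping groups. All 10 erythroid and megakaryocytic markers fixed for HEL cells had counts in every library. Of 8 markers of other blood cells, 4 had at most 3 counts in every library of the MLL1 experiment and 5 in the AF9 experiment, with CD3D, MS4A1 and CD14 at 0 in at least 1 table. These 8 markers summed to 65.4 to 73.4 TPM in control and 45.5 to 69.6 TPM in MLL1 KD cells, and to 220 to 240 TPM in control and 181 to 200 TPM in AF9 KD cells, most of it from LYZ, a gene of myeloid cells.

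In control cells the 4 transporters and GLUL lay at or above the level (TPM) of 80.6% of tested genes in the MLL1 experiment and of 72.1% in the AF9 experiment. In the MLL1 experiment SLC1A5 was highest at 775 ± 91.5 TPM (SD, n = 3). SLC7A5 followed at 518 ± 72.4 TPM, GLUL at 284 ± 47.5, SLC38A2 at 165 ± 9.77, GOT2 at 122 ± 18.7, SLC38A1 at 66.3 ± 2.63, GOT1 at 53.4 ± 14.9 and GLUD1 at 27.4 ± 4.15 TPM. The ranges of SLC38A1 and GOT1 overlapped, and those of all other neighbours in this order did not. SLC1A5 (ASCT2) exchanges glutamine for other neutral amino acids, and SLC7A5 (LAT1) exports glutamine in return for leucine and other large neutral amino acids. In the AF9 experiment SLC1A5 at 548 ± 73.3 TPM (SD, n = 2) and GLUL at 493 ± 22.4 TPM overlapped at the top. SLC38A2 followed at 216 ± 4.12 TPM, GOT1 at 143 ± 6.38, GOT2 at 129 ± 1.27, SLC7A5 at 106 ± 20.9, GLUD1 at 79.1 ± 5.93 and SLC38A1 at 55.2 ± 1.94 TPM, with no overlap between neighbours. In hg38 and on the minus strand, SLC1A5 lies on chromosome 19 (46774883 to 46788594), SLC7A5 and GOT2 on chromosome 16 (87830023 to 87869507 and 58707131 to 58734342) and GOT1 on chromosome 10 (99396870 to 99430624). The tables were scaled separately, so levels were not tested between them. TPM was computed with the length of all merged exons, which is 14283 bases for GLUD1 and 12638 for GLUL. Their canonical transcripts have 3300 and 7554 bases, so the order of genes and their place among tested genes rest on the length used.

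GLS2, the liver-type glutaminase (chromosome 12, 56470944 to 56488414, minus strand, hg38), had 0 counts in all 6 libraries of the MLL1 experiment and 1 count in replicate 1 of AF9 KD cells, with 0 in the other 3 libraries. A count of 0 allows up to 0.298 to 0.425 CPM per library in the MLL1 experiment and up to 0.218 to 0.252 CPM in the AF9 experiment, as 3 counts of each library, which covers counting error only. GLS2 did not pass the filter on low values and was not tested, so 8 of the 9 genes were.

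**Figure D1:**
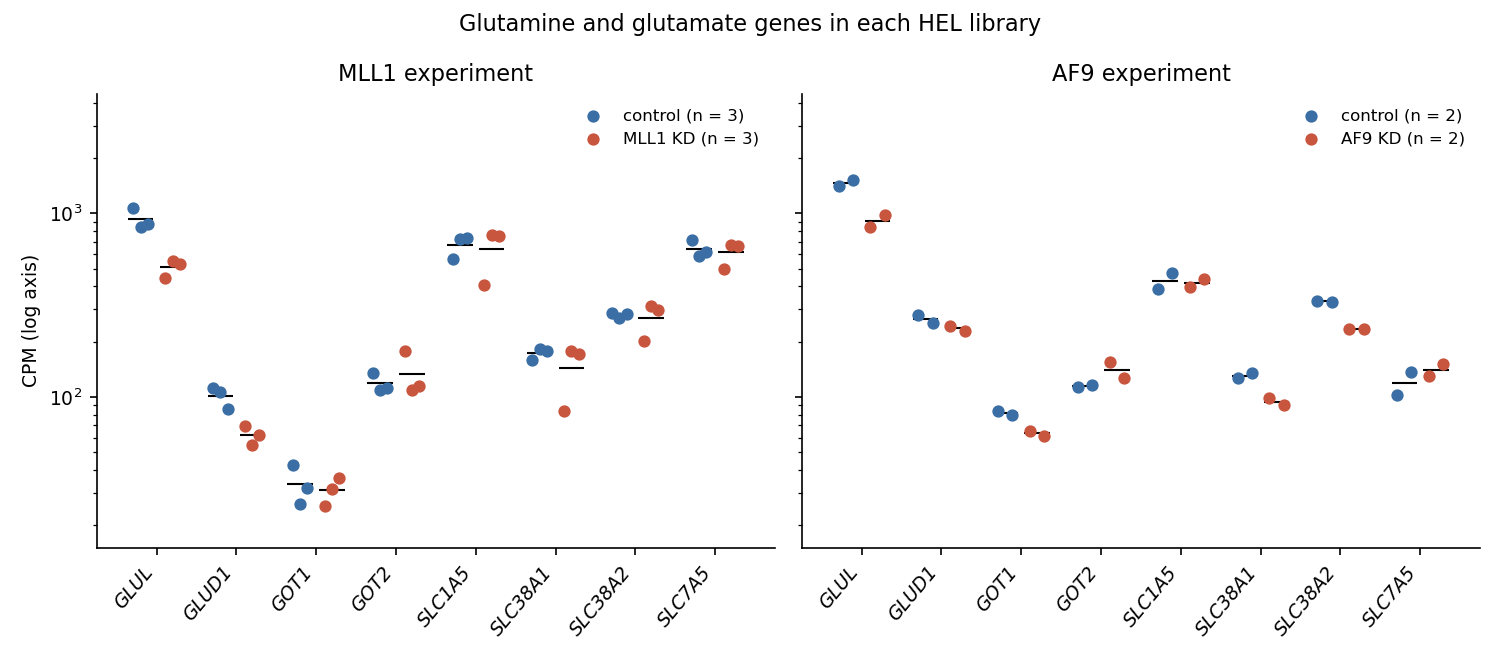
CPM on a log axis of 8 genes in each library of the MLL1 experiment (left) and the AF9 experiment (right), with control cells in blue, KD cells in red and group means as black bars; GLS2, with at most 1 count, is not drawn. GLUL lies lower in all KD libraries of both experiments, and GLUD1 does so by a wide margin in MLL1 KD and by a narrow one in AF9 KD libraries.

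Control and MLL1 KD cells were compared to find genes whose mRNA depends on MLL1. GLUL, the single enzyme of glutamine synthesis, was at 54.6% of control and GLUD1, which oxidizes glutamate in mitochondria, at 61.1%, while the other 6 genes had means between 83.5% and 112% of control. Without a replicate block 0 of the 8 tested genes were called by edgeR, as were 0.0694% of all 14408 genes in either direction, and 2 of the 8 reached an unadjusted p under 0.05, as did 9.97% of all genes. When the replicate number was fitted as a block, GLUL and GLUD1 were both called lower, against 2.52% of all genes. The number was taken to pair the libraries from these same data, in which only replicate 1 stood apart. DESeq2, the tool that the study used, called the same 2 genes lower, against 0.826% of all genes. In both directions it called 232 genes, where edgeR without the block called 10.

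GLUL (ENSG00000135821, chromosome 1, 182378098 to 182392206, minus strand, hg38) was measured at 1075, 839 and 879 CPM in the control libraries (replicates 1, 2 and 3), against 446, 547 and 532 CPM after MLL1 KD. Every KD library lay below every control library. The mean went from 931 ± 126 to 509 ± 54.7 CPM (SD, n = 3), which edgeR fitted at -0.87 on the log2 scale (SE 0.14, adjusted p = 0.100). The block left this value at -0.87 (SE 0.09) with an adjusted p of 2.4e-06, and DESeq2 gave an adjusted p of 1.8e-04. Replicates 2 and 3 alone gave -0.67 (adjusted p = 6.1e-25, edgeR). In that fit, which leaves out the replicate that stood apart, 18.3% of all genes had an adjusted p under 0.05. Of the 31-base stretches of its transcript, 8.96% occur in other annotated genes, the most in the processed pseudogene GLULP4 with 2.07%, followed by SBF2 with 1.38%.

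GLUD1 (ENSG00000148672, chromosome 10, 87050202 to 87094843, minus strand, hg38) was at 112, 106 and 86.3 CPM in control and 69.6, 54.9 and 61.7 CPM in MLL1 KD libraries. Here too the groups did not overlap. Its log2 fold change of -0.71 had an SE of 0.15 and an adjusted p of 0.172, and under the block it stood at -0.71 with an SE of 0.10 and an adjusted p of 1.0e-04 (both edgeR). DESeq2 gave an adjusted p value of 0.0132, and replicates 2 and 3 alone gave a log2 fold change of -0.72 with an adjusted p value of 4.0e-10 (edgeR). GLUD1 shares 32.7% of its 31-base stretches with GLUD2, an intronless copy on the X chromosome, so its counts are uncertain to the extent that reads were placed on either. GLUD2 had 0 to 3 counts in the MLL1 experiment and 244 to 300 in the AF9 experiment.

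The 2 genes make up all of the 8 tested whose MLL1 KD libraries lay entirely below the control libraries, which 9.06% of all tested genes did. The exact permutation test of log2 CPM (two-sided) gave p = 0.1 for GLUL and for GLUD1, the smallest that 3 against 3 libraries allow. The median log2 fold change was -0.09 over the 8 genes and 0.01 over all genes tested. GLUL and GLUD1 were called in replicates 2 and 3 alone, where 2.35% of all genes were called lower. The p values of that fit measure only the spread between replicates 2 and 3, which lay close together.

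In the other 6 genes the groups overlapped. GOT1, the cytosolic aspartate aminotransferase, had 42.4, 26.0 and 32.0 CPM in control cells and 25.4, 31.4 and 36.2 CPM in MLL1 KD cells. Within replicate 1 its log2 CPM was lower by 0.73 in the KD library, and within replicates 2 and 3 it was higher by 0.27 and 0.18. GOT2, the mitochondrial aspartate aminotransferase, had 136, 109 and 112 CPM in control cells and 177, 109 and 114 CPM in MLL1 KD cells, with log2 CPM higher by 0.39 in the KD library within replicate 1 and differing by -0.01 and 0.03 within replicates 2 and 3.

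Among the transporters SLC38A1 (SNAT1), which carries glutamine into cells with sodium, had 159, 182 and 177 CPM in control cells and 84.1, 177 and 172 CPM in MLL1 KD cells. SLC38A2 (SNAT2), a related carrier that is induced when amino acids are scarce, had 286, 269 and 283 CPM in control cells and 201, 312 and 298 CPM in MLL1 KD cells. SLC1A5 had 561, 721 and 735 CPM against 408, 762 and 749 CPM. SLC7A5 had 717, 584 and 617 CPM against 499, 675 and 664 CPM. In all 4 transporters replicate 1 of MLL1 KD cells was the lowest of the 6 libraries, and the other KD libraries lay within the range of the controls (SLC38A1 and SLC7A5) or above it (SLC38A2 and SLC1A5). The fitted log2 fold changes of the 4 transporters were -0.26 for SLC38A1, -0.05 for SLC38A2, -0.07 for SLC1A5 and -0.06 for SLC7A5, with standard errors of 0.27, 0.17, 0.24 and 0.15. With replicates 2 and 3 alone they were -0.04, 0.14, 0.05 and 0.15, with SLC7A5 at an adjusted p value of 0.0087 (edgeR) but under 1.5-fold. An adjusted p value under 0.05 was reached by 18.3% of all genes in that fit.

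**Figure D2:**
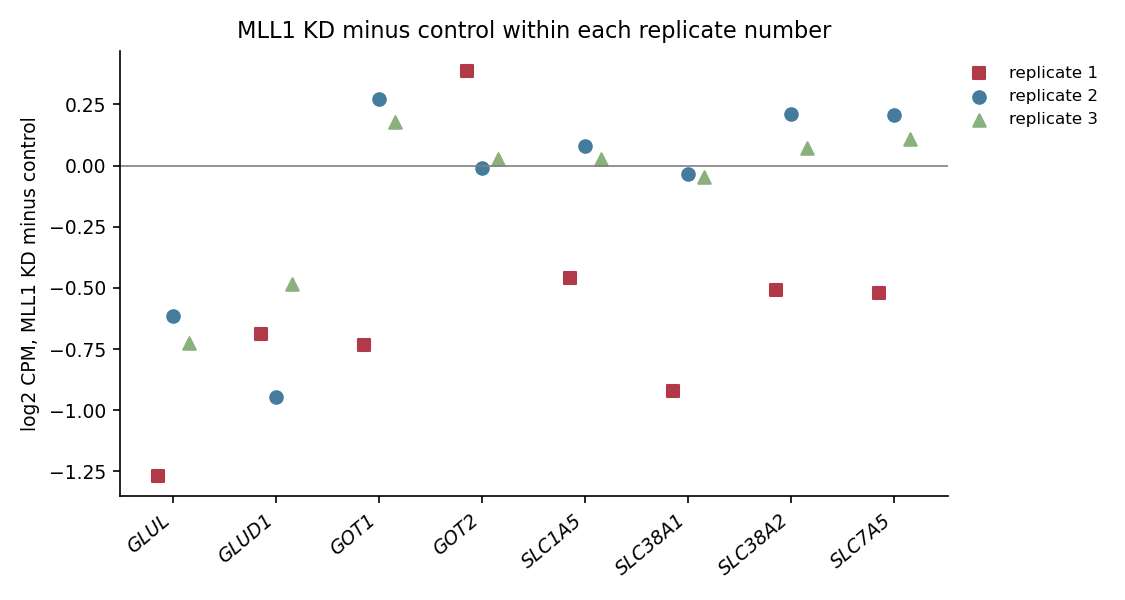
Difference in log2 CPM between MLL1 KD and control libraries of the same replicate number for 8 genes. GLUL (-1.27, -0.62 and -0.72) and GLUD1 (-0.69, -0.95 and -0.48) were lower in all 3 replicates, while the 4 transporters and GOT1 were lower by 0.46 to 0.92 in replicate 1 and between -0.05 and 0.27 in replicates 2 and 3.

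AF9 KD cells were compared with their own control cells in the same way. GLUL was the 1 gene of the 8 that was called, and it fell to 62.0% of control. SLC38A2, SLC38A1 and GOT1 were lower with adjusted p values under 0.05 but changed less than 1.5-fold, and GLUD1, GOT2, SLC1A5 and SLC7A5 did not pass the test. Of all 13349 genes tested, 5.06% were called lower and 8.01% higher. The adjusted p value alone put 4 of the 8 genes lower, against 14.5% of all genes.

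GLUL had 1411 and 1525 CPM in control cells and 840 and 980 CPM in AF9 KD cells. The mean fell from 1468 ± 80.4 to 910 ± 99.1 CPM (SD, n = 2), or by 0.69 on the log2 scale (SE 0.11, adjusted p = 5.8e-04, edgeR). Leaving out replicate 1 of AF9 KD cells gave -0.58 with an adjusted p of 1.8e-05 (edgeR), under the 1.5-fold threshold, so that the call was lost on size alone. The fetal globin genes HBG1 and HBG2 fell in the same libraries (log2 fold changes of -0.60 for both, adjusted p = 0.0017 and 0.0029, edgeR). Summed TPM of the 10 erythroid and megakaryocytic markers was 36274 to 36502 in control cells and 25017 to 29072 in AF9 KD cells. HBG1 and HBG2 made up most of this sum, with means of 8999 and 24434 TPM in control cells. The other 8 markers of that list were not called, and 5 of the 10 had log2 fold changes above 0. KLF1 (0.32, adjusted p = 0.0189) and EPOR (0.43, adjusted p = 0.0416, both edgeR) were higher by less than 1.5-fold. Offsets for GC content moved KLF1 to -0.36 and EPOR to 0.06. With offsets for GC content HBG1 was no longer called, at -0.54, HBG2 was still called, at -0.59, and the platelet glycoprotein gene GP9 was called lower, at -0.71 (adjusted p = 0.0071, edgeR). In the MLL1 experiment the sum lay between 5216 and 5703 in control cells and between 4599 and 4714 in MLL1 KD cells. None of the 10 markers was called there without the block, and under the block HBG2 fell together with GLUL, at -0.72 (adjusted p = 2.0e-06, edgeR). The part of these markers in the GLUL result was not tested. In bulk RNA, fewer cells of a type and less RNA per cell cannot be told apart.

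SLC38A2 had 334 and 329 CPM in control cells and 235 and 233 CPM in AF9 KD cells (log2 fold change -0.50, SE 0.09, adjusted p = 0.0014, edgeR). The replicates of each group lay close together and the groups far apart. SLC38A1 had 126 and 134 CPM against 98.3 and 89.8 CPM, which is -0.47 on the log2 scale (SE 0.10, adjusted p = 0.0029, edgeR). Both are members of the same family of sodium-coupled carriers and lie near each other on chromosome 12 (46183063 to 46270017 and 46358188 to 46372773, both on the minus strand, hg38). GOT1 had 83.5 and 79.4 CPM against 65.3 and 61.4 CPM, which is -0.36 on the log2 scale (SE 0.10, adjusted p = 0.0139, edgeR). GOT1 no longer passed without control replicate 1 (adjusted p = 0.182) or without control replicate 2 (adjusted p = 0.0546, both edgeR). GOT2 was the 1 gene with both KD libraries above both control libraries, at 154 and 127 CPM against 113 and 116 CPM (log2 fold change 0.29, adjusted p = 0.0514, edgeR).

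GLUD1 had 279 and 254 CPM in control cells and 242 and 230 CPM in AF9 KD cells. The groups did not overlap, but the change of -0.18 on the log2 scale (SE 0.10) did not pass (adjusted p = 0.184, edgeR). SLC1A5 had 387 and 474 CPM against 397 and 440 CPM, and SLC7A5 had 102 and 137 CPM against 130 and 151 CPM, with overlapping groups in both. In 5 of the 8 genes both AF9 KD libraries lay below both controls, which 33.2% of all genes did, and in 1 both lay above, which 32.8% did. With 2 against 2 libraries the exact permutation test cannot go below p = 0.333, which is the value for each of these 6 genes. The median log2 fold change was -0.27 over the 8 genes and 0.01 over all genes.

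Fold changes in the AF9 experiment moved with the GC content of genes. The median log2 fold change was 0.54 over 1547 genes with at least 60% GC in their exons and -0.18 over 2225 genes under 40%. With offsets from the trend of each library with GC content these medians became 0.02 and 0.01. SLC1A5 and SLC7A5 have 61.2% and 61.1% GC, SLC38A2 has 37.6%, and the other tested members have 40.1% to 47.8%. With the offsets GLUL remained called at a log2 fold change of -0.63 (adjusted p = 8.8e-04, edgeR), where 4.26% of all genes were called lower. SLC1A5 moved from -0.04 to -0.47 (adjusted p = 0.0013, edgeR) and SLC7A5 from 0.23 to -0.19 (adjusted p = 0.118, edgeR). SLC38A2 moved from -0.50 to -0.30, GLUD1 from -0.18 to -0.01, and GOT2 from 0.29 to 0.35 (adjusted p = 0.0145, edgeR). The directions of SLC7A5 and SLC1A5 in AF9 KD cells therefore depend on this correction or on the scaling, since with total counts in place of TMM factors SLC1A5 was at 0.05.

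**Figure D3:**
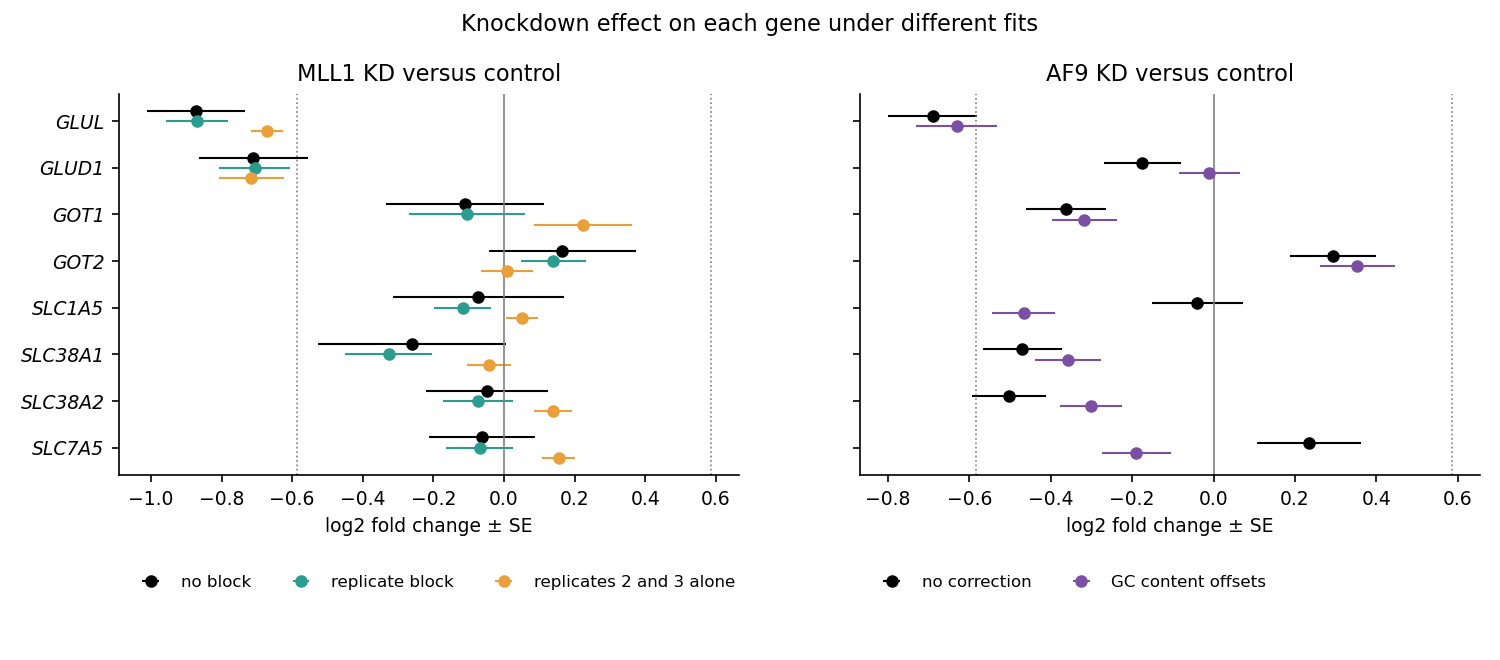
Log2 fold change with its standard error for 8 genes in MLL1 KD cells (left: without a block, with the replicate block, and in replicates 2 and 3 alone) and AF9 KD cells (right: without correction and with GC content offsets), with dotted lines at a 1.5-fold change. GLUL lies beyond the lower line in every fit drawn, GLUD1 does so in the 3 fits of MLL1 KD cells only, and SLC1A5 and SLC7A5 move to the left with the GC content offsets.

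Whether the knockdowns acted differently on a gene was tested in 1 fit of all 10 libraries as the effect of MLL1 KD minus the effect of AF9 KD. For GLUL the difference was -0.17 on the log2 scale (SE 0.20, adjusted p = 0.769), and no difference between the knockdowns was detectable at this spread. GLUD1 differed by -0.53 (SE 0.20, adjusted p = 0.246), the largest of the 8, and SLC38A2 by 0.47 (SE 0.24, adjusted p = 0.394, all edgeR). None of the 8 genes passed, where 0.817% of 14442 genes did, and 1 reached an unadjusted p under 0.05, against 15.8% of all genes. When replicate numbers were blocked in both experiments GLUD1 passed, with a difference of -0.52 (SE 0.13, adjusted p = 0.0084, edgeR), against 21.1% of all genes. That block also covers the AF9 numbers, which are not taken to pair the libraries. SLC38A2 was at 0.44 with an adjusted p value of 0.051 in the same fit (edgeR), and it passed without replicate 1 of MLL1 KD cells, at 0.64 (adjusted p = 0.0208, edgeR), where 6.13% of all genes did.

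Of 45 other genes of glutamine and glutamate metabolism on 4 lists, 37 passed the filter in the MLL1 experiment and 36 in the AF9 experiment. In MLL1 KD cells none of the 37 was called by edgeR or DESeq2, and 5 reached an unadjusted p under 0.05 in the edgeR fit, where 9.97% of all genes did. Under the block SLC38A7, a glutamine and asparagine exporter of lysosomes, rose with a log2 fold change of 1.00 (adjusted p = 0.0012, edgeR), and 2.22% of all genes were called higher. It had 6.23 to 13.9 CPM in control cells and 12.0 to 24.2 CPM in MLL1 KD cells.

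In AF9 KD cells 5 of the 36 genes rose, where 8.01% of all genes were called higher, 4 fell, where 5.06% were called lower, and 27 were not called. Among 9 glutamine amidotransferases and other glutamine users PFAS, an amidotransferase of purine synthesis, rose from 48.8 ± 3.50 to 95.6 ± 6.14 CPM (SD, n = 2), up by 0.97 on the log2 scale (adjusted p = 4.6e-05, edgeR). Among 14 enzymes that form or use glutamate, PSAT1 and GAD1 fell and PYCR3 and ALDH4A1 rose. PSAT1, which transfers the amino group of glutamate in serine synthesis, fell from 160 ± 22.6 to 78.2 ± 18.2 CPM, and GAD1, which decarboxylates glutamate to GABA, fell from 99.2 ± 7.07 to 55.2 ± 5.36 CPM. PYCR3, an enzyme of proline synthesis, was low, with 21 to 62 counts per library, and ALDH4A1, which forms glutamate from proline, rose from 22.3 ± 1.79 to 36.5 ± 3.39 CPM.

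Among 7 further transporters of the plasma membrane and lysosome, SLC7A11 and SLC1A4 fell and SLC38A7 rose. SLC7A11, the subunit of the cystine-glutamate antiporter that exports glutamate, fell from 46.8 ± 2.92 to 18.5 ± 5.48 CPM (SD, n = 2), down to -1.34 on the log2 scale (adjusted p = 1.2e-04, edgeR). SLC1A4 (ASCT1), a carrier of small neutral amino acids related to SLC1A5, fell from 66.6 ± 6.65 to 41.0 ± 7.15 CPM. SLC38A7 rose with a log2 fold change of 1.04 (adjusted p = 0.0071, edgeR). Among 6 mitochondrial carriers and enzymes of the malate-aspartate shuttle SLC25A22, a glutamate carrier, rose from 7.82 ± 0.80 to 17.8 ± 2.59 CPM.

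With the GC content offsets 3 of the 36 genes were called higher, against 3.69% of all genes, and 5 lower, against 4.26%. PYCR3, ALDH4A1 and SLC25A22 lost their calls, at log2 fold changes of 0.74, 0.38 and 0.54. PYCR1, another enzyme of proline synthesis, was called lower at -0.60 and SLC25A13, an aspartate-glutamate carrier, higher at 0.63. PFAS, SLC38A7, PSAT1, GAD1, SLC7A11 and SLC1A4 kept their calls. Without replicate 1 of control cells PYCR3 and SLC38A7 lost their calls (adjusted p = 0.16 and 0.0521, edgeR), and without replicate 1 of AF9 KD cells SLC1A4 did, at a log2 fold change of -0.53.

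**Figure D4:**
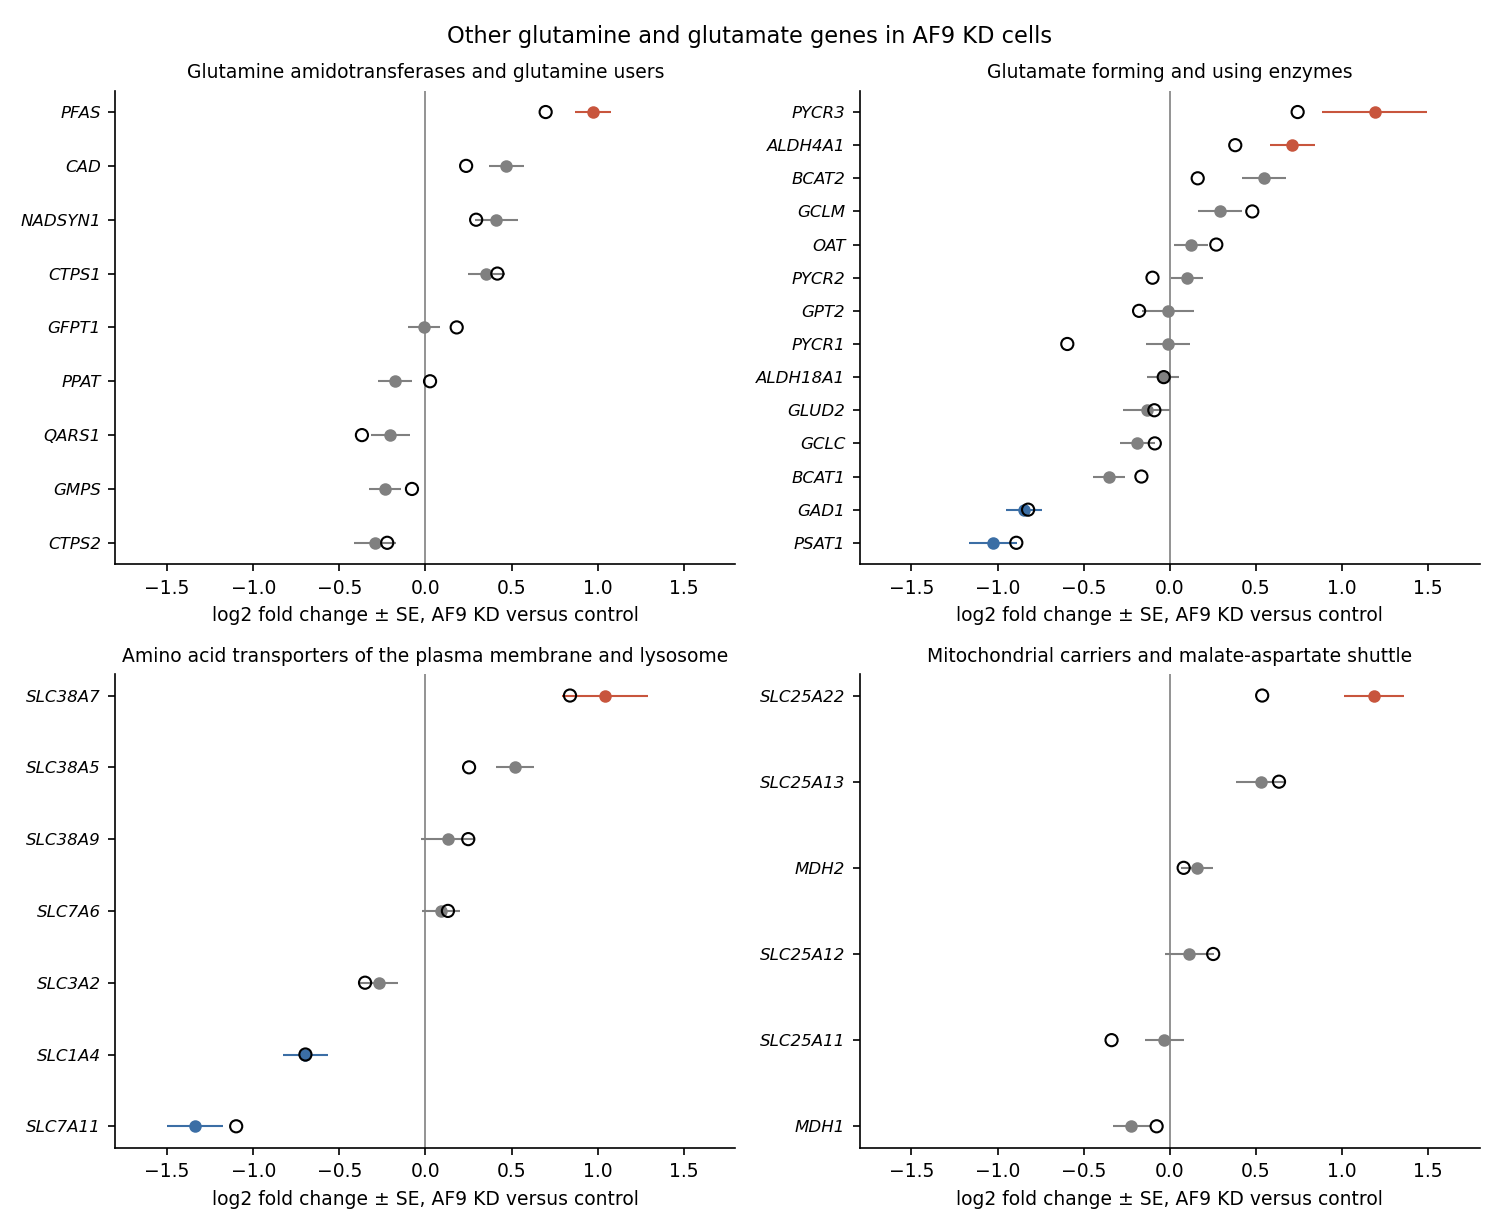
Log2 fold change with its standard error in AF9 KD cells for the tested genes of 4 lists, in red where called higher, in blue where called lower and in grey where not called, with open circles for the same gene under GC content offsets. The called genes run from SLC7A11 at -1.34 to PYCR3 at 1.19, and the open circles of PYCR1 and SLC25A22 lie far to the left of their points.

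The pattern of GLUL over the libraries was compared with that of all 12748 other genes tested in both tables, as Pearson's r of log2 CPM centred within each table over 10 libraries. The closest were PGM3 (r = 0.974), GFOD1 (r = 0.970), APOBEC3B (r = 0.969), CALB2 (r = 0.967) and UHMK1 (r = 0.967). Among the members GLUD1 was closest with r = 0.79, followed by SLC38A1 with 0.63, SLC38A2 with 0.60 and GOT1 with 0.58, while GOT2 ran the opposite way with -0.49. These values describe 10 libraries that share the knockdown and, in the MLL1 experiment, the separate place of replicate 1. SLC38A1 and SLC38A2 followed each other with r = 0.90.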

How the data were processed

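RNA-seq of HEL cells was used (poly(A) RNA, strand-specific dUTP libraries). Per the labels the authors processed the reads with fastp 0.13.1, HISAT2 2.1.0 (hg38) and featureCounts 1.6.1, and they deposited read counts per gene symbol without normalization. The annotation behind the symbols and the handling of reads that map to several places are not given in the sources used here. CUT&Tag and PRO-seq samples were not analysed here.

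Counts were analysed with R 4.3.3, edgeR 4.0.16 (TMM, glmQLFit, glmQLFTest), DESeq2 1.42.0, Python 3.11.15 and matplotlib 3.10.9. The filter was a mean TPM of 1 or more (mean CPM of 1 or more without a length). Lengths and GC content came from merged exons of GENCODE version 44, to which 92.4% of the 28103 symbols matched. The tests were adjusted by Benjamini-Hochberg over all genes. Differences between experiments were called at an adjusted p value under 0.05 alone. Log2 CPM used a prior count of 2. The scripts were tested on simulated data. Alternatives were DESeq2, other scalings and filters, no fold threshold, the replicate block, GC content offsets (lowess, span 0.3), each library left out, and replicates 2 and 3 alone.

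Deviations from group means of same-numbered control and KD libraries correlated at 0.647, 0.325 and 0.351 in the MLL1 experiment, so its numbers were taken to pair the libraries. Replicates 2 and 3 correlated as well across numbers (0.368 and 0.359), so no pairing by number can be seen between them. Nothing says that replicates were separate cultures, and p values measure the spread between these libraries, which may be technical.

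The genes, the lists and most alternatives were chosen with earlier results of these data known, and GLUL because the study names it. The genes named are the members, KMT2A and MLLT3, from each list at most the 4 called genes with the largest change per comparison, the 5 genes most like GLUL, and genes that share 31-base stretches with a member. HBG1 and HBG2 with their values, PYCR1 and SLC25A13 were named after their values were seen or as list members. A further gene of the lists is not reported here.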

Additional observations from a re-analysis of the deposited data

Results flagged for a closer look

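The effects of the knockdowns on GLUD1 differed when the replicate number was fitted as a block in both experiments. In the fit of all libraries without the block GLUD1 did not pass. The numbers of the AF9 experiment are not taken to pair its libraries. The effect of MLL1 KD minus that of AF9 KD was -0.52 on the log2 scale (adjusted p = 0.0084, edgeR), and over all fits of this difference the adjusted p value ranged from 0.0084 to 0.574. In the fit with the block 21.1% of all genes passed this test, and of the 8 tested members 1 did. GLUD1 was lower in 3 of 3 MLL1 KD libraries than in the control of the same number, and in 2 of 2 AF9 KD libraries. GLUD2, which shares 32.7% of the 31-base stretches of GLUD1, had 0 to 3 counts in the MLL1 table and 244 to 300 in the AF9 table, and its part in the difference was not tested.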

How the results depend on the processing

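The number of members called in MLL1 KD cells was 0 in the fit as designed and rose to 2 with the replicate block, to 2 with GC content offsets and the replicate block, to 2 with replicates 2 and 3 alone and to 2 with DESeq2, and to 1 with no filter beyond 1 count, while leaving out a library gave 0 each time. In AF9 KD cells 1 was called, 4 with no fold change threshold, and 0 to 1 with a library left out, with 0 without AF9 KD replicate 1; the replicate block gave 1 there, where the correlation of same-numbered deviations was 0.156 and the numbers are not taken to pair the libraries. Members whose effects differed were 0, then 1 with the replicate block and 0 to 1 with a library left out.

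In MLL1 KD cells, replicates 2 and 3 alone turned GOT1 to 0.22, SLC1A5 to 0.051, SLC38A2 to 0.14 and SLC7A5 to 0.15. Leaving out a library gave ranges that include 0 for GOT1 (-0.26 to 0.10), GOT2 (-0.093 to 0.29), SLC1A5 (-0.22 to 0.17), SLC38A1 (-0.43 to 0.017), SLC38A2 (-0.16 to 0.13) and SLC7A5 (-0.14 to 0.069). In AF9 KD cells SLC1A5 was 0.050 with total counts and -0.18 to 0.11 with a library left out, and SLC7A5 was -0.19 with GC content offsets, with or without the replicate block. The difference between experiments turned to 0.40 for SLC1A5 and 0.13 for SLC7A5 with GC content offsets, and with a library left out ran from -0.38 to 0.036 for GOT2 and from -0.17 to 0.22 for SLC1A5. The causes were not tested. Of 468 log2 values recomputed, 414 kept their direction and their side of the threshold. Total counts moved the median of all differences between experiments to -0.11. The AF9 experiment, with 2 libraries a group, limits every value from it.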
